A study of Rattus norvegicus with 8 samples.

Results

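The genes described here mark the dentate gyrus of the hippocampus and the steps by which new neurons form in it. The list holds 8 genes, Prox1, Calb1, Dcx, Neurod1, Sox11, Eomes, Sox2 and Nes, and its members are all sample probes that carry one of these names on the array. Of these, 7 genes had a probe under their name, with 10 probes on 19 spots per array, out of 26214 genes on the array, and Eomes, the transcription factor of intermediate neuronal progenitors, was not analysed here. All 10 probes passed the filter on dim signal, and Prox1 passed it through normoxia alone.

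RNA came from the hippocampus of male Sprague Dawley rats, an outbred laboratory strain, and was labelled with Cy3 and hybridised to single-colour Agilent rat arrays, 8 in all. Rats were either kept in normoxia, the control condition, or exposed in a decompression chamber to hypobaric hypoxia, which is the low oxygen of high altitude, here equivalent to 25000 ft with 8% oxygen. Each of the 4 groups, normoxia and hypobaric hypoxia titled day 1, day 3 and day 7, had 2 arrays. The last one carries day 7 in its titles and 5 days in its exposure field. It is called day 7 here. Age was not given. Whether both arrays of a group hold RNA of separate rats is not stated, so the p-values describe the scatter of these arrays, and that scatter may be only technical.

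In the dentate gyrus, neural stem cells that express Sox2 and Nes line the inner edge of the granule cell layer and keep dividing in the adult. Their daughters pass through progenitor and neuroblast stages, marked by Neurod1, Dcx and Sox11, and mature into granule cells, which carry Prox1 and Calb1. Hippocampal stem cells and young neurons are known to respond to oxygen supply, growth factors and stress hormones.

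Values are log2 signals minus the 75th percentile of the array, so that 0 is the level of a fairly bright probe and each unit is a doubling. Each probe has its own brightness, and levels were compared between groups and not between probes. A gene was called where its adjusted p from limma, taken over 21296 genes, was under 0.05. All 14 tested genes of a list of hippocampal neuron genes were well above background on all 8 arrays. So were 14 of 15 thalamic and 13 of 14 neocortical genes, so detection does not tell these tissues apart. The median gene differed by 0.061 to 0.095 log2 within a group, and the probe that stands for each member other than Prox1 differed by at most 0.30 between the arrays of a group. Signals of whole arrays became dimmer with exposure. The 75th percentile lay at 2684 and 2321 on the normoxia arrays. It was 2214 and 2247 for day 1, 1710 and 1566 for day 3, and 1407 and 1393 for day 7. Every direction below is relative to it: without this scaling the values of Neurod1, Sox2 and Nes on day 3 and of Dcx, Neurod1 and Sox2 on day 7 turned negative, as did those of several other pathway genes. RNA of a whole tissue region was measured, so fewer cells of a type and less RNA per cell cannot be told apart.

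Whether the position of a probe bears on its readout was not tested. Sequences are shown for the probe of each granule cell marker, the dim Sox11 probe, and the Sox2 probe that departed from the other Sox2 probe. Each is a 60-base sequence as the array files give it, with at least 1 reading frame open up to its last codon, and positions follow the array maker's annotation, on rat build rn4. The Calb1 and Prox1 positions span 209 and 23985 bases of the genome, so neither 60-base probe is 1 contiguous stretch of the genome. The Calb1 and Sox2 probes lie on the plus strand and the Prox1 and Sox11 probes on the minus strand.
Calb1 A_44_P236255, chr5:30475783-30475991: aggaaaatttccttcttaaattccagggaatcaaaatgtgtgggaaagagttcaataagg
Prox1 A_44_P456958, chr13:106423135-106447119: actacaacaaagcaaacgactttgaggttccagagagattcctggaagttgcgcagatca
Sox11 A_64_P073944, chr6:45141898-45141957: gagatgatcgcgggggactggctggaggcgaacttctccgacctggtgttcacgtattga
Sox2 A_44_P506024, chr2:120969725-120969784: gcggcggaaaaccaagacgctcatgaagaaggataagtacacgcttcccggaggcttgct

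Sox2, a transcription factor that keeps stem cells undifferentiated and that mature astrocytes also carry, was higher in every exposed group on its brighter probe. This probe, A_42_P778330, read 3.01 and 3.06 in normoxia, with 3.39 on both arrays of day 1, 3.56 and 3.58 on day 3 and, by day 7, 3.24 and 3.30. All 6 exposed arrays lay above both normoxia arrays, with the highest values on day 3. The change against normoxia was 0.36 ± 0.04 on day 1 (SE, n = 2 arrays per group, adjusted p = 0.00251), 0.53 ± 0.04 on day 3 (adjusted p = 0.000462) and 0.23 ± 0.04 on day 7 (adjusted p = 0.0042). The day 3 change was 1.45-fold. Without scaling it was -0.075 on day 3 and -0.60 on day 7.

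The other Sox2 probe, A_44_P506024, read 0.12 on both arrays of normoxia, with 0.66 and 0.75 on day 1, 0.27 and 0.25 on day 3 and, by day 7, -0.26 and -0.05. It was highest on day 1 and lowest on day 7, where both arrays lay below normoxia. In the fit over all 24678 kept probes its change was 0.59 ± 0.08 on day 1 (adjusted p = 0.00465), 0.14 ± 0.08 on day 3 (adjusted p = 0.194) and -0.27 ± 0.08 on day 7 (adjusted p = 0.0279). Both probes were thus higher on day 1 and pointed in opposite directions on day 7. They also differed between day 3 and day 1, at 0.18 ± 0.04 on the brighter probe (adjusted p = 0.0146) and -0.45 ± 0.08 on the other (adjusted p = 0.00654). The day 7 direction of Sox2 also turned under other scalings: it was -0.02 with quantile normalization, -0.044 once each array's trend with signal level was removed, and -0.021 as the mean of both probes. Genes in the brightest decile, to which Sox2 belongs, had a median change of 0.36 on day 7, so that its own 0.23 lay below that of genes of like brightness.

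Nes encodes nestin, an intermediate filament protein of neural stem cells that reactive astrocytes and growing vessels also carry. Its brighter probe, A_44_P1020422, read -1.45 and -1.26 in normoxia, with -1.01 and -0.90 on day 1, -1.12 and -1.18 on day 3 and, by day 7, -1.64 and -1.93. Both arrays of days 1 and 3 lay above normoxia and both of day 7 below it. The change was 0.40 ± 0.12 on day 1 (adjusted p = 0.0524) and 0.21 ± 0.12 on day 3 (adjusted p = 0.2), neither of which passed the test. On day 7 Nes fell by 0.43 ± 0.12 (adjusted p = 0.0257), 1.35-fold lower than in normoxia.

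The dimmer Nes probe, A_64_P148321, on 1 spot per array, read -2.62 and -2.50 in normoxia, with -1.96 and -2.13 on day 1, -2.14 and -2.31 on day 3 and, by day 7, -3.64 and -3.40. It followed the same order of groups, and its day 1 rise of 0.51 ± 0.12 passed the test over probes (adjusted p = 0.0244), as did its day 7 fall of 0.96 ± 0.12 (adjusted p = 0.00125). The day 1 value of the brighter probe lay close to the threshold, with adjusted p = 0.0346 after median centring. Its day 7 call was lost without normoxia replicate 2 (adjusted p = 0.119), without day 7 replicate 2 (adjusted p = 0.08), with only normoxia and day 7 fitted (adjusted p = 0.0803), with quantile normalization (adjusted p = 0.0853) and after median centring, where the change was -0.13 (adjusted p = 0.328).

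**Figure D1:**
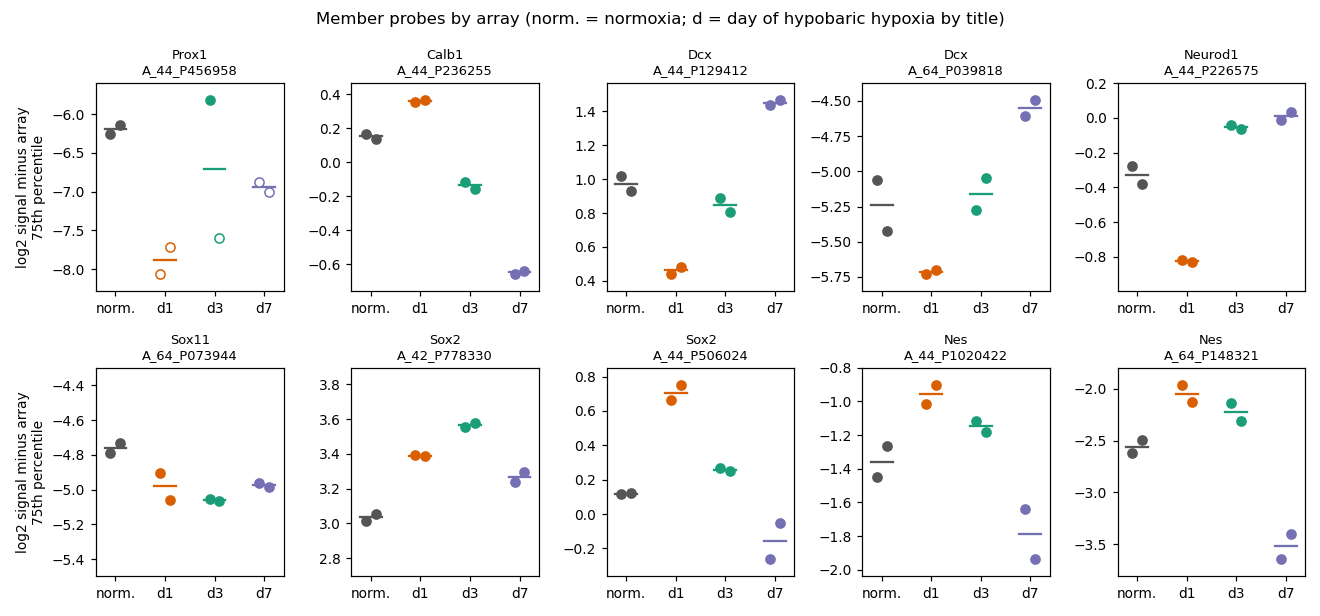
Log2 signal minus the array's 75th percentile for each of the 10 member probes, by group in order of exposure (norm. is normoxia, d1, d3 and d7 are days 1, 3 and 7). Points are single arrays, open where the probe was not well above background, lines are means of 2 arrays, and each panel has its own axis: both Dcx probes and Neurod1 were lowest on day 1, and Calb1 was lowest on day 7.

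Neurod1, a basic helix-loop-helix factor needed for the differentiation and survival of granule neurons, was lower on day 1 and higher on days 3 and 7. Its probe read -0.28 and -0.38 in normoxia, with -0.82 and -0.83 on day 1, -0.04 and -0.06 on day 3 and, by day 7, -0.01 and 0.03. No exposed array overlapped with normoxia. Neurod1 fell by 0.49 ± 0.05 on day 1 (adjusted p = 0.00163), which is 1.41-fold. It rose by 0.28 ± 0.05 on day 3 (adjusted p = 0.00622) and by 0.34 ± 0.05 on day 7 (adjusted p = 0.002), and without scaling these were -0.33 and -0.49. Between day 3 and day 1 the difference was 0.77 ± 0.05 (adjusted p = 0.000276), while day 7 and day 3 differed by 0.064 ± 0.047 (adjusted p = 0.326).

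Dcx encodes doublecortin, a microtubule-binding protein of migrating neuroblasts and the usual marker of young granule neurons. Its brighter probe, A_44_P129412, read 1.02 and 0.93 in normoxia, with 0.44 and 0.48 on day 1, 0.89 and 0.81 on day 3 and, by day 7, 1.44 and 1.47. The day 1 arrays were the lowest of all 8 and the day 7 arrays the highest. Dcx fell by 0.51 ± 0.05 on day 1 (adjusted p = 0.00198), 1.43-fold below normoxia, and its day 3 value of -0.13 ± 0.05 did not pass the test (adjusted p = 0.0956). On day 7 it rose by 0.48 ± 0.05 (adjusted p = 0.000818), 1.39-fold above normoxia, and without scaling this was -0.36.

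The dimmer Dcx probe, A_64_P039818, read -5.06 and -5.42 in normoxia, with -5.73 and -5.70 on day 1, -5.27 and -5.05 on day 3 and, by day 7, -4.61 and -4.50. It too was lowest on day 1 and highest on day 7. Its day 1 change was -0.47 ± 0.14 (adjusted p = 0.0536) and its day 7 change 0.69 ± 0.14 (adjusted p = 0.00897). Day 3 exceeded day 1 by 0.39 ± 0.05 and day 7 exceeded day 3 by 0.605 ± 0.052 on the brighter probe, and both differences passed the test (adjusted p = 0.00267 and 0.00124).

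The stretch before the start of Dcx and of Neurod1 is shown because both genes fell on day 1 and rose on day 7. These are the 250 bases before the start, in the direction of transcription, from RefSeq on build GRCr8, where both genes lie on the minus strand. Promoter entries were matched for 6 of the 8 members. Capitals mark the E-box, CANNTG, the site of basic helix-loop-helix factors, which reads the same on both strands.
Dcx, chrX:112304162-112304411: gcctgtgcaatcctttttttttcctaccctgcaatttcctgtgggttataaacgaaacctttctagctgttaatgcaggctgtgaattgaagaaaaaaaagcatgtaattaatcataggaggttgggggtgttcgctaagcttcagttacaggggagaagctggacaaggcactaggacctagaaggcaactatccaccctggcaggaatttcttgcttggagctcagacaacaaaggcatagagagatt
Neurod1, chr3:84770455-84770704: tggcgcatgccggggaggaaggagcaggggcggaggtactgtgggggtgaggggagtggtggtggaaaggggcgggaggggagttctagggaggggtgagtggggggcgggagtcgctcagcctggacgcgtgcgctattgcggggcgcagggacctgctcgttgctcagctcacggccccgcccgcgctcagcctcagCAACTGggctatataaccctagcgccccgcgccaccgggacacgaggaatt

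The Neurod1 stretch held 1 E-box and the Dcx stretch 0. Among the other members Sox11 held 2, Sox2 held 1, and Nes and Eomes held 0, while 65.4% of 27457 promoters hold at least 1 in these 250 bases. ACGTG, a form of the core of the hypoxia response element, searched on both strands, was in 0 of the 6 member stretches and in 16.9% of all promoters. ACAAT, a form of the Sox core, also on both strands, was in 0 of the 6 and in 29.7% of all. Other forms of either core were not searched for. These counts say only which letters stand in the window.

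Sox11, a transcription factor of young neurons that acts with Sox4, read -4.79 and -4.73 in normoxia, with -4.90 and -5.06 on day 1, -5.06 on both arrays of day 3 and, by day 7, -4.96 and -4.99. All exposed arrays lay below normoxia. The fall was 0.22 ± 0.06 on day 1 (adjusted p = 0.0409), 0.30 ± 0.06 on day 3 (adjusted p = 0.0111) and 0.21 ± 0.06 on day 7 (adjusted p = 0.0281). The probe was dim, in the third decile of signal, where the median gene changed by -0.14 on day 1, -0.18 on day 3 and -0.23 on day 7. The day 7 direction of Sox11 turned under quantile normalization (0.14), median centring (0.083), normexp background correction (0.30), and removal of the trend with level (0.051), and it was 0 once the trend with probe GC was removed. On day 3 normexp gave 0.14. Of 22 other settings, 6 lost the day 3 call and 1 turned it, and 7 lost the day 7 call and 5 turned it. The day 1 call was lost in 16 of 21 other settings, with adjusted p = 0.0634 with the replicate number as a block.

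Calb1 encodes calbindin, a calcium-binding protein of mature granule cells that CA1 pyramidal cells and striatal projection neurons also express. It read 0.17 and 0.14 in normoxia, with 0.35 and 0.36 on day 1, -0.12 and -0.15 on day 3 and, by day 7, -0.66 and -0.64. The groups did not overlap, with day 1 the highest and day 7 the lowest. Calb1 rose by 0.21 ± 0.04 on day 1 (adjusted p = 0.00924), and fell by 0.29 ± 0.04 on day 3 (adjusted p = 0.00199) and by 0.80 ± 0.04 on day 7 (adjusted p = 6.09e-05). The day 7 level was 1.74-fold below normoxia. Each later group was below the one before it, by 0.49 ± 0.04 between day 3 and day 1 (adjusted p = 0.000392) and by 0.51 ± 0.04 between day 7 and day 3 (adjusted p = 0.000756). The falls on days 3 and 7 passed the test under all 22 other settings, while the day 1 rise was not called without scaling, without day 1 replicate 1 (adjusted p = 0.0522) or without day 1 replicate 2 (adjusted p = 0.0594).

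Prox1, a homeobox factor that sets and maintains granule cell identity, was too dim for a firm comparison. It read -6.25 and -6.14 in normoxia, with -8.06 and -7.71 on day 1, -5.82 and -7.60 on day 3 and, by day 7, -6.88 and -7.00. It was well above background on both normoxia arrays and on 1 day 3 array, and on 0 arrays of days 1 and 7. The 2 spots of day 3 replicate 1 read 16.1 and 56.7 in raw signal, so its value rests on 1 bright spot. With each exposed array set no lower than its dimmest signal called well above background, day 1 lay 3.06-fold and day 7 1.66-fold below normoxia. These are not lower bounds, since Prox1 was not well above background even on arrays where it read above that dimmest signal. Neither change passed the test, at -1.69 ± 0.56 (adjusted p = 0.0714) for day 1 and -0.74 ± 0.56 (adjusted p = 0.304) for day 7. Day 3 did not pass it either, at -0.51 ± 0.56 (adjusted p = 0.491). Leaving out either day 3 array put the day 1 and day 7 changes past the threshold, which supports nothing, since Prox1 passed the filter only through normoxia and its day 1 and day 7 signals were not well above background. Without day 3 replicate 1 the day 3 change was -1.40, and without day 3 replicate 2 it was 0.38. With normexp background correction the values turned to 0.36 on day 3 and 0.46 on day 7, and day 1 was -0.22. In the dimmest decile, to which Prox1 belongs, the median gene changed by -0.40 on day 1 and -0.65 on day 7.

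**Figure D2:**
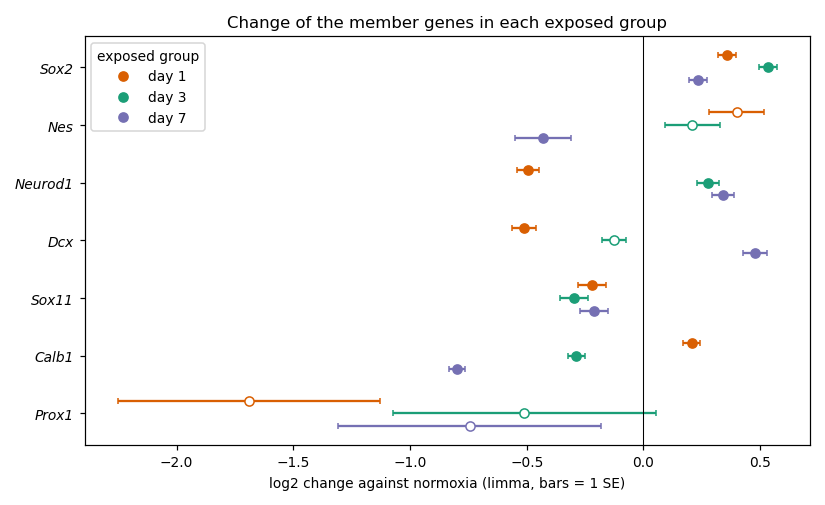
Log2 change against normoxia of the 7 member genes on days 1, 3 and 7, each on its brighter probe, with bars of 1 SE from limma (2 arrays per group). Filled points passed adjusted p under 0.05 and open points did not. Calb1 reached -0.80 on day 7, and Dcx and Neurod1 lay below 0 on day 1 and above 0 on day 7, where values without scaling were -0.36 and -0.49.

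Over the members, 2 of 7 were called higher and 3 of 7 lower on day 1, beside 15.3% higher and 20.2% lower of all 21296 genes. On day 3 it was 2 higher and 2 lower, beside 24.2% and 26.2%, and on day 7 it was 3 higher and 3 lower, beside 31.5% and 29.7%. Between day 3 and day 1, 3 were called higher and 1 lower, beside 28.2% and 23%, and between day 7 and day 3, 1 was higher and 3 lower, beside 24.2% and 18.3%. A difference among the 4 groups was called for 6 of 7 members, all but Prox1, and for 72.1% of all genes. With calls this common, the counts are no result about the list. The median change of the members was -0.22, -0.13 and -0.21 on days 1, 3 and 7, against medians of all genes of -0.068, -0.051 and -0.033. With 7 members this median is a single gene, Sox11 on days 1 and 7 and Dcx on day 3, so it does not show a shift of the list. No called member changed by 2-fold or more. Without day 1 replicate 2 the day 1 calls fell to 3, since the calls of Calb1 and Sox11 were lost.

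The comparisons with normoxia share the same 2 normoxia arrays, so members' changes are set side by side and not correlated. Changes across all genes depended on signal level. In the brightest decile the median changes on days 1, 3 and 7 were -0.007, 0.18 and 0.36, and in the dimmest decile they were -0.40, -0.63 and -0.65. Calb1 and Neurod1 lay in the same decile, whose medians were -0.033, -0.004 and 0.029. The decile of Dcx had medians of -0.048, 0.05 and 0.17, and that of Nes -0.027, -0.06 and -0.058. The changes of Calb1, Neurod1 and Dcx on days 1 and 7 were thus further from 0 than the median of their decile. In that median rises and falls cancel. In the decile of Calb1 and Neurod1, 39.3% of genes were called higher and 33.7% lower on day 7. The comparison thus does not say how common changes of this size were.

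**Figure D3:**
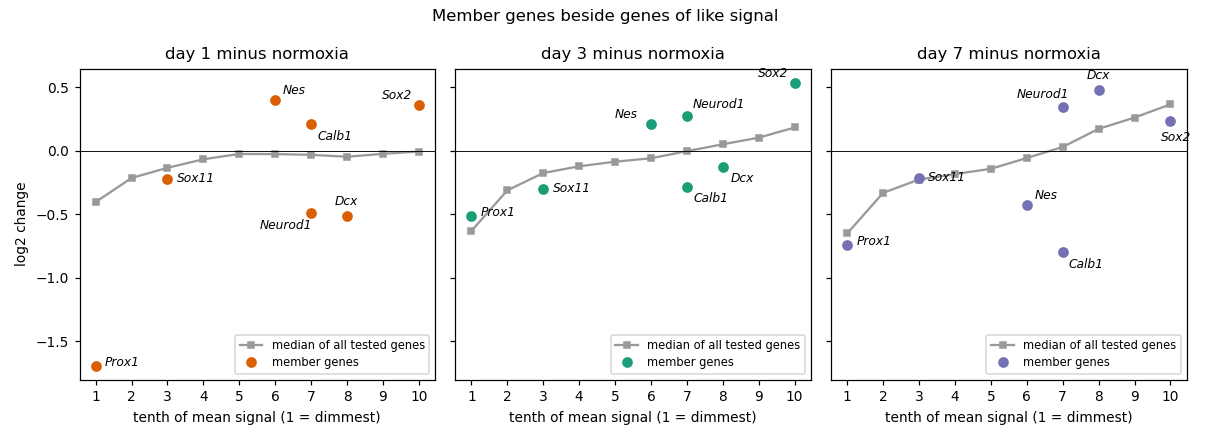
Log2 change against normoxia by decile of mean signal over the 8 arrays (1 is the dimmest), for days 1, 3 and 7. Squares are the median of about 2130 genes per decile and circles the member genes. On day 7 Sox11 (-0.21) and Sox2 (0.23), whose directions turn with the scaling, lay near the squares, whereas Calb1 (-0.80) lay below the median of its decile and Dcx (0.48) above.

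For the 3 members with the widest range of group means, the genes with the most similar values over the 8 arrays were found by the root mean square difference of values centred on each gene's mean. Those nearest to Calb1 were Adprhl2, now named Adprs, at 0.028, Cnbp at 0.036 and Itpkc at 0.04 log2. Adprs changed by 0.18 on day 1, -0.33 on day 3 and -0.86 on day 7. Those nearest to Dcx were Camp at 0.05, Slc39a10 at 0.052 and Frs2 at 0.055, and those nearest to Prox1 were C9 at 0.232, Klhl31 at 0.296 and Wnt5a at 0.308. The range and distances of Prox1 rest on 5 arrays on which it was not well above background. All were picked for likeness out of 14438 genes with a symbol, over 8 arrays.

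Other genes of the pathway were taken from lists of stem cell, progenitor, young neuron, granule cell, proliferation and niche signal genes, without the members. The counts of these and later lists stand beside the shares of all 21296 genes. Called higher were 15.3%, 24.2% and 31.5% on days 1, 3 and 7, and called lower were 20.2%, 26.2% and 29.7%. Whether a list departed from these shares was not tested. Of 18 tested stem cell genes, 5 were called higher and 8 lower on day 1, 5 higher and 8 lower on day 3, and 7 higher and 7 lower on day 7. The glial filament genes moved apart. Vim, encoding vimentin, rose by 1.18 on day 1 and fell by 0.65 on day 7, with 0.07 on day 3. Gfap, the astrocyte filament that radial stem cells also carry, fell in each exposed group, by 0.34, 0.87 and 1.96 ± 0.05 on days 1, 3 and 7 (adjusted p = 2.65e-05 on day 7). Fabp7, a fatty acid binding protein of radial glia, rose by 0.30, 0.84 and 1.09, and Prom1, encoding prominin, fell by 0.58 on day 1 and rose by 0.31 and 0.86 on days 3 and 7. Stem cell genes thus held strong changes in both directions, and their median change was -0.19, -0.093 and 0.054 on days 1, 3 and 7.

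Of 6 tested progenitor genes, 0 were called higher and 2 lower on day 1, 2 higher and 2 lower on day 3, and 2 higher and 1 lower on day 7. Sox4, the partner of Sox11 in young neurons, was at 0.096 on day 1 and rose by 0.45 on day 3 and 0.82 on day 7. Gadd45g, a stress-induced gene that takes part in neural development in frog embryos, fell by 0.22, 0.77 and 0.71, and Rhbdl3, a rhomboid-like protein, rose by 0.24 and 0.62 on days 3 and 7, with 0.012 on day 1. Elavl4, a neuronal RNA-binding protein, fell by 0.20 and 0.22 on days 1 and 3 and was at 0.074 on day 7. The median change of the list was -0.21, -0.12 and 0.029.

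Of 17 tested young neuron genes, 4 were called higher and 9 lower on day 1, 5 higher and 7 lower on day 3, and 5 higher and 8 lower on day 7. Dpysl5, a collapsin response protein of growing axons, was at 0.095 on day 1 and fell by 1.29 on day 3 and 1.81 ± 0.07 on day 7 (adjusted p = 4.93e-05). Calb2, encoding calretinin, which young granule neurons and thalamic cells carry, fell by 0.75, 1.64 and 1.07. It is also on the list of mossy cell genes. Tubb3, the neuronal tubulin, fell by 0.77 on day 1 and by 0.12 on day 3 (adjusted p = 0.0499) and rose by 0.55 on day 7, and median centring turned its day 3 value to 0.023. Stmn1, a tubulin-binding protein, rose by 0.36 on day 1 and fell by 0.33 and 0.42 on days 3 and 7. Tubb3 had the same order of signs on days 1 and 7 as Dcx, whereas Dpysl5 and Calb2 were lower on day 7. The median change of the list was -0.22, -0.098 and -0.19.

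Of 13 tested granule cell genes besides Prox1 and Calb1, 2 were called higher and 7 lower on day 1, 4 higher and 4 lower on day 3, and 2 higher and 3 lower on day 7. Dsp, encoding desmoplakin, which marks granule cells in mouse, fell by 0.40 on day 1 and 0.88 on day 7 and rose by 0.21 on day 3. With normexp its day 7 value was 0.20. Trpc6, a cation channel, fell by 0.25 on day 1 and rose by 0.69 and 0.75 on days 3 and 7, and Il16, an interleukin precursor, fell by 0.33 and then rose by 0.52 and 0.17. Penk, the enkephalin precursor, rose by 3.17 ± 0.04 on day 1 (adjusted p = 4.02e-06), fell by 0.26 on day 3 and was at 0.019 on day 7, and it is also a gene of striatal neurons. The median change of the list was -0.25, -0.12 and -0.015.

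Of 18 tested proliferation genes, 4 were called higher and 2 lower on day 1, 10 higher and 5 lower on day 3, and again 10 higher and 5 lower on day 7. Their median changes on days 1, 3 and 7 were -0.025, 0.25 and 0.38. Mki67, the common marker of dividing cells, was at -0.086 on day 1 and rose by 1.15 on day 3 and 1.27 ± 0.05 on day 7 (adjusted p = 5.7e-05). Birc5, encoding survivin, was at -0.13 on day 1 and rose by 0.24 on day 3 and 1.64 on day 7. Of the cyclin D genes, Ccnd1 was at -0.11 on day 1 and fell by 0.88 on day 3 and 1.06 on day 7, and Ccnd2, which adult hippocampal neurogenesis requires in mouse, fell by 0.25 on day 1 and 0.66 on day 7, with 0.07 on day 3. Dividing endothelial, glial and immune cells express the same genes.

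Of 30 tested niche signal genes, 7 were called higher and 11 lower on day 1, 8 higher and 14 lower on day 3, and 9 higher and 12 lower on day 7. Vegfa, the hypoxia-induced vessel growth factor, rose by 2.68, 2.64 and 2.50 ± 0.07 on days 1, 3 and 7 (adjusted p = 3.06e-05 on day 7). Ntrk2, the receptor of brain-derived neurotrophic factor, was at -0.05 on day 1 and rose by 0.33 and 1.00 on days 3 and 7, and the mean of its probes gave -0.089 on day 3. Frzb, a secreted Wnt antagonist, fell by 0.44 on day 1 and rose by 0.71 and 0.80, and Cxcl12, a chemokine for migrating neural precursors, fell by 0.44 on day 1 and rose by 0.61 on day 7, with 0.098 on day 3. The median change was -0.13, -0.20 and -0.18. These signals come from neurons, glia and vessels alike.

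**Figure D4:**
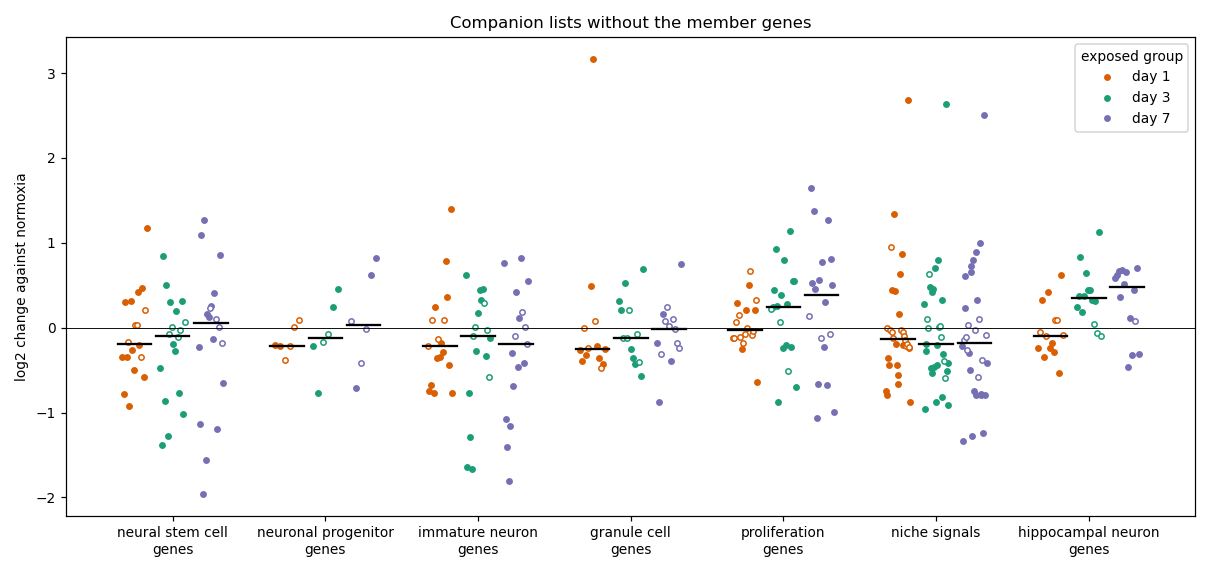
Log2 change against normoxia of each tested gene in 6 lists of the neurogenic pathway, without the member genes, and in a list of hippocampal neuron genes, on days 1, 3 and 7. Filled points passed adjusted p under 0.05, open points did not, and black lines are list medians. Proliferation genes had medians of 0.25 and 0.38 on days 3 and 7, and hippocampal neuron genes 0.35 and 0.48. Medians of the brightest decile of all genes were 0.18 and 0.36.

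Markers of other cell types and of neighbouring tissue moved with the groups, and their part in the changes of the members was not tested. Of 19 striatal genes, 17 were called higher and 0 lower on day 1, with Adora2a at 4.61, and the list's summed linear signal, in units of the array's 75th percentile, was 69.7 to 70.6 on day 1 against 17.4 to 17.7 in normoxia. Calb1 rose in that group, as did Penk, which is itself on the striatal list and part of its count and sum. Day 3 and day 7 sums were 15.9 to 16.0 and 17.3 to 17.7. Of 19 choroid plexus genes, 19 were lower on day 1 and again on day 7, with sums of 5.08 to 5.19 on day 1 and 14.3 to 14.8 on day 7 against 129.5 to 139.9 in normoxia, and 12 and 9 of the 19 were well above background on both arrays of these groups. On day 3 the sum was 169.9 to 181.5, with 4 genes called higher and 7 lower. In normoxia and on day 3 most of this sum came from Ttr alone. Ttr read 6.83 and 6.96 log2 in normoxia and 7.39 and 7.28 on day 3, so the higher day 3 sum does not describe the list.

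Of 11 endothelial genes, a cell type that can carry Nes, 8 were called higher and 0 lower on day 1, 6 higher and 3 lower on day 3, and 6 higher and 4 lower on day 7. Their sums were 32.8 to 33.2, 28.5 to 29.9 and 22.4 to 22.7, against 10.5 to 10.9 in normoxia. Of 11 astrocyte genes, a cell type that carries Sox2, 5 were higher and 3 lower on days 1 and 3, and 8 higher and 3 lower on day 7, with sums of 289.9 to 300.1, 297.2 to 300.1 and 326.4 to 330.5 against 253.4 to 276.2 in normoxia. Of 8 genes of the subventricular zone and olfactory bulb, whose neuroblasts carry Dcx, 3 were higher and 1 lower on day 1, 1 higher and 4 lower on day 3, and 3 higher and 3 lower on day 7, with sums of 5.42 to 5.96, 3.30 to 3.36 and 3.30 to 3.34 against 5.81 to 7.33 in normoxia.

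Of 14 hippocampal neuron genes, 3 were called higher and 6 lower on day 1, 11 higher and 0 lower on day 3, and 10 higher and 3 lower on day 7. Of all genes, 24.2% and 31.5% were called higher on days 3 and 7. In the brightest decile, where Fibcd1 of this list lay, these shares were 51.7% and 72.3%. In the ninth decile, that of Neurod2 and Neurod6, they were 42.7% and 61.1%. Whether the list differed from genes of like brightness was not tested. Their sums were 123.9 to 129.1 on day 1, 171.3 to 171.5 on day 3 and 187.2 to 188 on day 7, against 132.5 to 136.9 in normoxia. Neurod1 and Dcx were lowest and highest in the same groups as this sum. For Neurod1, however, day 7 and day 3 differed by only 0.064 (limma, adjusted p = 0.326). Without scaling, Dcx and Neurod1 on day 7 were at -0.36 and -0.49 against normoxia. Of 6 Cajal-Retzius cell genes, which mark neurons along the hippocampal fissure that can carry Eomes, 3 were lower on day 1, and 5 were lower and 1 higher on days 3 and 7. The sums were 0.538 to 0.550, 0.490 to 0.541 and 0.383 to 0.409, against 0.652 to 0.659 in normoxia, and Ebf3, Lhx1, Lhx5 and Cacna2d2 were well above background on at most 1 array of day 3 and at most 1 of day 7.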

How the data were processed

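Hippocampal RNA of 4 groups was measured on 8 single-colour arrays, 2 per group, and groups were taken from the labels. The deposited scanner output holds processed signal intensity per spot, background-subtracted and not scaled between arrays, from Agilent Feature Extraction 11.5.1.1, per the file headers. The deposited values of the series are log2; their scaling is not given in the sources used here, and after 1 constant per array 96.7% to 97.4% of them lay within 0.05 of the scaled log2 signals used here. They served as an alternative.

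Control and outlier spots were left out. Each probe got the mean log2 signal of its spots, less the 75th percentile of all 30367 probes on that array. A spot's detection is the software's call, and a probe counted as well above background where at least 50% of its spots were. Kept were the probes that reached this in 1 or more groups on both arrays, 24678 of 30346 complete probes. The brightest kept probe stood for a gene, which gave 21296 genes, and all kept probes were also fitted. limma 3.58.1 in R 4.3.3 (lmFit, eBayes) fitted 1 mean per group over all 8 arrays. Tests were two-sided, and p-values were adjusted by the Benjamini-Hochberg method. The fit had 4 residual and 1.22 prior degrees of freedom. The procedure was tested on simulated data. Arrays have no read depth, and their number limits the precision.

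The members and lists were chosen with earlier results of these data known. All members were named. From each pathway list up to 4 genes with the smallest adjusted p in the moderated F-test were named, from other lists counts, sums and up to 2 markers, and for the 3 members of widest range the 3 nearest genes. Alternatives covered scaling, background correction, filter, probe choice, prior, arrays in the fit, replicate block, trends with GC and level, a 2-fold threshold and leaving out each array. Array numbers 1 and 2 were not treated as pairs, since deviations from group means correlated at -0.149 to 0.047 between groups. Probe positions are the array annotation's, on rn4; exon and UTR positions on that build are not given here. Promoters are from RefSeq on GRCr8. Python 3.11.15, numpy 2.4.6, pandas 2.3.3, matplotlib 3.10.9 and version 1.17.8 of data.table were also used.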

Additional observations from a re-analysis of the deposited data

Results flagged for a closer look

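Changes against normoxia of several members differed between successive exposed groups, by the limma test of that difference, with values on the log2 scale. Between day 3 and day 1 the difference was 0.77 for Neurod1, 0.39 for Dcx, 0.18 for Sox2 and -0.49 for Calb1. The other Sox2 probe went the opposite way, by -0.45 (adjusted p = 0.00654 over probes), and the Sox2 value turned in 2 of 21 other settings and lost its call in 5, among them those without day 1 replicate 1, day 1 replicate 2 or day 3 replicate 2. Between day 7 and day 3 it was 0.605 for Dcx, -0.30 for Sox2, -0.51 for Calb1 and -0.64 for Nes. For Neurod1 and Calb1 the day 1 and day 3 changes against normoxia were both called and had opposite signs. Groups of 2 arrays are too small for a test of outlying arrays.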

How the results depend on the processing

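Every direction above is relative to the array's 75th percentile. Without scaling between arrays, the median of all genes moved by -0.23, -0.66 and -0.87 log2 on days 1, 3 and 7, by -0.415 between day 3 and day 1, and by -0.17 between day 7 and day 3. With median centring it was -0.041, 0.097 and 0.26 on days 1, 3 and 7. Signal over background limits Prox1, which was not well above background on 5 of 8 arrays. The causes of the changes below were not tested.

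The count of members called on day 1 was 5, and it was 3 without scaling. On day 7 it was 6, and it was 3 with quantile normalization. It was 0 in each of the 5 comparisons, against 5, 4, 6, 4 and 4, when a change of at least 2-fold was also asked. Leaving out each array gave 3 to 5 on day 1, 3 to 5 on day 3, 4 to 6 on day 7, 3 to 4 between day 3 and day 1, 4 to 5 between day 7 and day 3, and 5 to 6 for any difference. With the replicate number as a block the counts were 4, 4, 6, 4 and 4, and 6 for any difference. That block ended the day 1 call of Sox11 (adjusted p = 0.0634) and no other call of a member.

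Without scaling, the sign turned on day 1 for Rhbdl3 (-0.15), Sox4 (-0.067) and Dpysl5 (-0.068). On day 3 it turned for Neurod1 (-0.33), Sox2 (-0.075), Nes (-0.40), Dsp (-0.40), Il16 (-0.084), Vim (-0.54), Prom1 (-0.295), Rhbdl3 (-0.37), Sox4 (-0.16), Birc5 (-0.365), Ccnd2 (-0.54), Ntrk2 (-0.28) and Cxcl12 (-0.51). On day 7 it turned for Dcx (-0.36), Neurod1 (-0.49), Sox2 (-0.60), Penk (-0.815), Trpc6 (-0.086), Il16 (-0.67), Rhbdl3 (-0.22), Sox4 (-0.016), Elavl4 (-0.76), Tubb3 (-0.28), Frzb (-0.031) and Cxcl12 (-0.22). Between day 3 and day 1 it turned for Dcx (-0.061) and Sox2 (-0.27), and between day 7 and day 3 for Neurod1 (-0.16) and Sox11 (-0.14).

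Quantile normalization turned Cxcl12 on day 3 (-0.013), Sox11 (0.14), Sox2 (-0.02) and Elavl4 (-0.16) on day 7, and Sox11 between day 3 and day 1 (0.032). Median centring turned Dcx (0.021) and Tubb3 (0.023) on day 3, and Sox11 on day 7 (0.083) and between day 3 and day 1 (0.042). Normexp turned Prox1 (0.36), Sox11 (0.14) and Ccnd2 (-0.05) on day 3, Prox1 (0.46), Sox11 (0.30) and Dsp (0.20) on day 7, Sox11 between day 3 and day 1 (0.18), and Prox1 between day 7 and day 3 (0.10). Removing the trend with level turned Prox1 (0.14) and Cxcl12 (-0.007) on day 3, Sox11 (0.051), Sox2 (-0.044), Penk (-0.094) and Elavl4 (-0.18) on day 7, and Sox11 between day 3 and day 1 (0.009). Removing the trend with probe GC turned Ntrk2 on day 1 (0.015), Sox11 (0), Penk (-0.049) and Elavl4 (-0.15) on day 7, and Neurod1 between day 7 and day 3 (-0.008). The mean of a gene's probes turned Mki67 on day 1 (0.023), Ntrk2 on day 3 (-0.089), and Sox2 on day 7 (-0.021) and between day 3 and day 1 (-0.135). Leaving out each array gave Prox1 -1.40 to 0.38 on day 3 and -1.12 to 0.65 between day 7 and day 3, both set by the day 3 arrays, and Penk -0.003 to 0.041 on day 7.

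Among 751 values of members under other settings, 639 kept direction and side of the threshold, 48 lost the call, 32 gained it and 32 turned. Over all genes, calls on day 1 numbered 7559, against 4614 without scaling, and 4984, 4350 and 4382 once normoxia replicate 2, day 1 replicate 1 or day 1 replicate 2 was left out. Between day 7 and day 3 they numbered 9034, against 4686 without scaling and 5358 with only these 2 groups fitted. The share of calls that were higher was 43.1%, 48% and 51.5% on days 1, 3 and 7. It was 17%, 2.27% and 1.3% without scaling. On days 3 and 7 it was 66.7% and 73.1% with median centring and 68.2% and 71.6% with normexp. On day 1 it was 57.9% with the GC trend and 53.7% with the level trend removed. Between day 3 and day 1 it was 55.1%, against 5.35% without scaling, 68.9% with median centring and 70.5% with normexp. Between day 7 and day 3 it was 57%, against 8.26% and 77.2% without scaling and with median centring.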

Other observations

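Genes of the other hippocampal fields and of further cell types were counted the same way, with calls by limma's adjusted p. Of 6 CA1 pyramidal genes, 3 were called higher and 2 lower on day 1, 3 higher and 1 lower on day 3, and 4 higher and 2 lower on day 7. Of 8 CA2 genes, 0 were higher and 4 lower on day 1, 2 higher and 2 lower on day 3, and 3 higher and 3 lower on day 7. The 8 CA3 genes gave 1 higher and 2 lower, 3 higher and 2 lower, and 3 higher and 3 lower. The 7 mossy cell genes gave 2 higher and 3 lower at each time. These lists share genes with others: Sostdc1 is also a choroid plexus gene, Drd2 a striatal gene and Calb2 a thalamic gene. Among all 21296 genes, 15.3%, 24.2% and 31.5% were called higher on days 1, 3 and 7, and 20.2%, 26.2% and 29.7% lower.

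Of 11 genes of oligodendrocyte precursors, which also divide in the adult hippocampus, 1 was higher at each time, and 5, 9 and 6 were lower on days 1, 3 and 7. Of 10 ependymal genes, 1 was higher and 6 lower on day 1, 8 higher and 0 lower on day 3, and 5 higher and 3 lower on day 7. Of 15 thalamic genes, 10, 12 and 10 were lower, and of 14 neocortical genes, 6 were higher and 3 lower on day 1, 2 higher and 6 lower on day 3, and 3 higher and 7 lower on day 7.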
